A study of Aspergillus nidulans with 4 samples.

Results

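Ribosomal protein genes encode the structural proteins of the ribosome. Of the 10930 genes in the deposited table, 123 were taken as ribosomal protein genes because their function text names a ribosomal protein, a ribosomal subunit or a structural constituent of the ribosome. The 73 members whose text does not mention mitochondria are called cytosolic, and the 50 whose text does are called mitochondrial. By their text or symbol, 43 cytosolic members belong to the large subunit and 17 to the small subunit, and 13 name neither. Among the mitochondrial members, 33 belong to the large subunit and 17 to the small one.

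RNA-seq was done on mycelium of *Aspergillus nidulans*, a filamentous fungus, from 2 strains with 2 samples each. The Δ*pkaA* strain (FGSC A1358) lacks the gene for PkaA, a catalytic subunit of protein kinase A (PKA), and the WT (FGSC A1405) is its isogenic parent. Both strains were grown in YGV, a rich broth (0.5% yeast extract, 2% glucose), shaken at 250 rpm at 28°C, and harvested after about 20 h of main culture. The labels give a seed culture of 12 h at pH 3.3 before the main culture. For this step the study's methods state a slightly longer time and a slightly higher pH. Each strain is 1 line, and any other allele that both carry is not given in the sources used here.

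Cytosolic ribosomes translate the mRNAs of the nuclear genome, and mitochondrial ribosomes translate the few mRNAs of the mitochondrial genome. In fungi the cytosolic ribosomal protein genes are among the most highly transcribed, and in growing yeast their transcripts follow nutrient supply. In *Saccharomyces cerevisiae*, signaling through PKA and through the TOR kinase promotes their transcription. The question here was how these transcripts differed between the Δ*pkaA* strain and the WT during growth in glucose.

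The values are the authors' mean normalized counts, which are reads on a gene divided by a size factor for each library and averaged over the libraries of a strain. They come with no standard deviation. All means summed to 29312151 in Δ*pkaA* and 31012501 in WT. The deleted gene *pkaA* (AN6305) had 79 and 69 recovered reads in the Δ*pkaA* libraries, against 1892 and 1851 in the WT libraries, so its level followed the labels. As bulk RNA was measured, fewer cells of a type and less RNA per cell cannot be told apart. Of 5 genes of conidiation (asexual sporulation), the summed means were 646 in Δ*pkaA* and 1532 in WT. The sum lay at 623 and 669 in the Δ*pkaA* libraries, against 1781 and 1284 in the WT libraries. Of these, *abaA* (134 in Δ*pkaA*, 951 in WT) and *wA* (140, 339) had lower means in the Δ*pkaA* strain. Higher means were found for *wetA* (94, 55) and *yA* (208, 120) and, by little, for *brlA* (69, 67), and none was listed at 0. The lower sum thus rests mainly on *abaA*. The part of the 5 genes in the results below was not tested.

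Most cytosolic members were modestly higher in the Δ*pkaA* strain than in the WT, and over all 73 the ratios ran from 0.61 to 2.43. The median ratio of the Δ*pkaA* mean over the WT mean was 1.53 over the 73 members, a log2 ratio of 0.61 with quartiles of 0.40 and 0.72. The median mean was 35314 in Δ*pkaA* and 22753 in WT. The ratio was above 1 for 65 members, or 89.0%, and below 1 for 8. Over the 9455 genes of the table with an average of both means of at least 10, the median log2 ratio was 0.00 and 50.0% of the ratios were above 1. Together the cytosolic members held 8.51% of all summed means in Δ*pkaA* and 5.19% in WT.

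The differences were mostly below 2-fold. Only 3 of 73 cytosolic members had a ratio of at least 2, which is 4.11% of them, against 16.3% of all 9455 genes. None was at least 2-fold lower, against 16.4% of all genes. At a limit of 1.5-fold, 39 of 73 members had a higher mean in Δ*pkaA*, or 53.4% against 25.2% of all genes. Only 2 of 73 were at least 1.5-fold lower, or 2.74% against 25.7% of all genes. No test was made on these ratios, because each strain has 1 mean for a gene at this level.

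**Figure D1:**
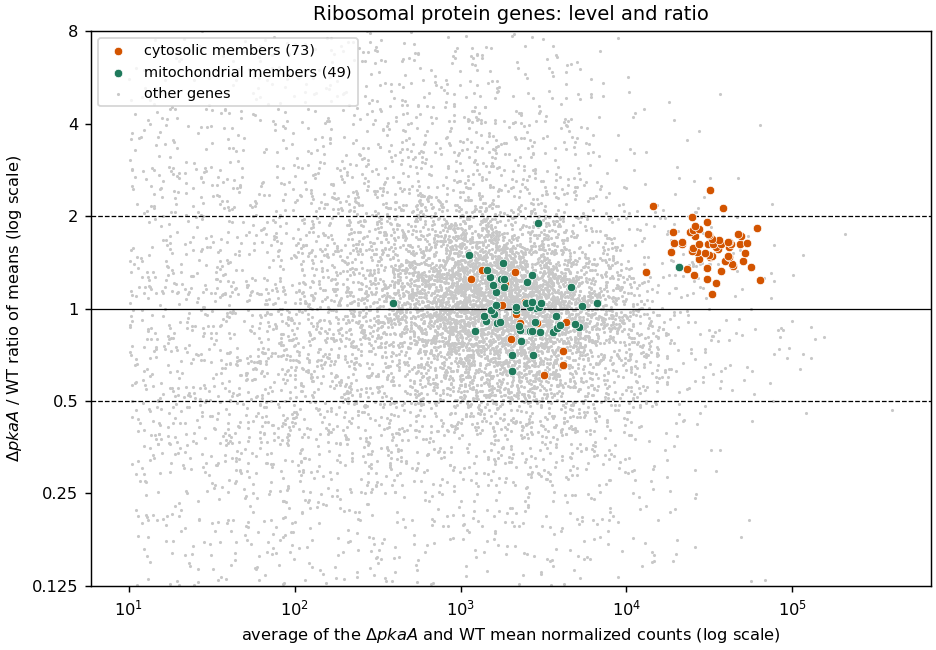
Average of the 2 means (x axis, log scale) against the Δ*pkaA*/WT ratio (y axis, log scale) for the cytosolic members (orange), the mitochondrial members (green) and other genes with an average of at least 10 (gray). Dashed lines mark ratios of 2 and 0.5, and 768 of the 9333 other genes lie outside the plotted ratios of 0.125 to 8. The cytosolic members form a cloud at averages above 13215 and ratios of 1.12 to 2.43, and a second set of 14 lies at averages of 4324 or less among the mitochondrial members.

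The cytosolic members fell into 2 levels with a gap between them. The averages of 59 members lay at 13215 or above, and those of the other 14 at 4324 or below. The gap was seen after the values were known and was then drawn at an average of 10000. All 59 members above it had a ratio above 1, against 36.9% of the 490 other genes with averages in that range. Their median ratio was 1.62, with quartiles of 1.46 and 1.73, a lowest value of 1.12 and a highest of 2.43. At least 1.5-fold above WT were 39 of the 59, or 66.1%, against 19.6% of the other genes above 10000. At the 2-fold limit 5.08% of the 59 were higher, against 13.9% of those other genes, and none was lower, against 22.2%. The other genes at that level had a median log2 ratio of -0.28. The part of the expression level in the ratios was not tested.

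The widest differences were in proteins of the large subunit. AN1013, annotated as ribosomal protein L5, the partner of the 5S rRNA in the large subunit, had a mean of 45279 in Δ*pkaA* and 18655 in WT, a ratio of 2.43 with a 95% interval of 2.40 to 2.46. This interval and those that follow cover counting error only, and are narrow because each mean rests on a large number of reads. AN1013 lies on chromosome VIII, at 1808115 to 1809804 on the minus strand in the authors' coordinates.

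AN11419, annotated in the large subunit and, by its orthologs, also in the cell wall, had 19647 in Δ*pkaA* and 9131 in WT, a ratio of 2.15 (2.11 to 2.19). It lies on chromosome II at 2841419 to 2842431 on the plus strand and has the lowest WT mean of the 59. AN1122, a large-subunit protein that is also found in its precursor, had 52313 and 24529 (Δ*pkaA*, WT), a ratio of 2.13 (2.11 to 2.16). It lies on chromosome VIII at 1450724 to 1451798 on the plus strand and shares 12 bases with AN1121 on the other strand. AN1121 had 1449 in Δ*pkaA* and 1617 in WT.

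These 3 were the only members past the 2-fold limit, and AN1122 lay closest to it from inside. Closest from outside was AN4594, a small-subunit gene with the symbol *S10a*, with 33000 in Δ*pkaA* and 16591 in WT, a ratio of 1.99 (1.96 to 2.02). AN6181 of the large subunit followed with 40349 and 21064, a ratio of 1.92.

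**Figure D2:**
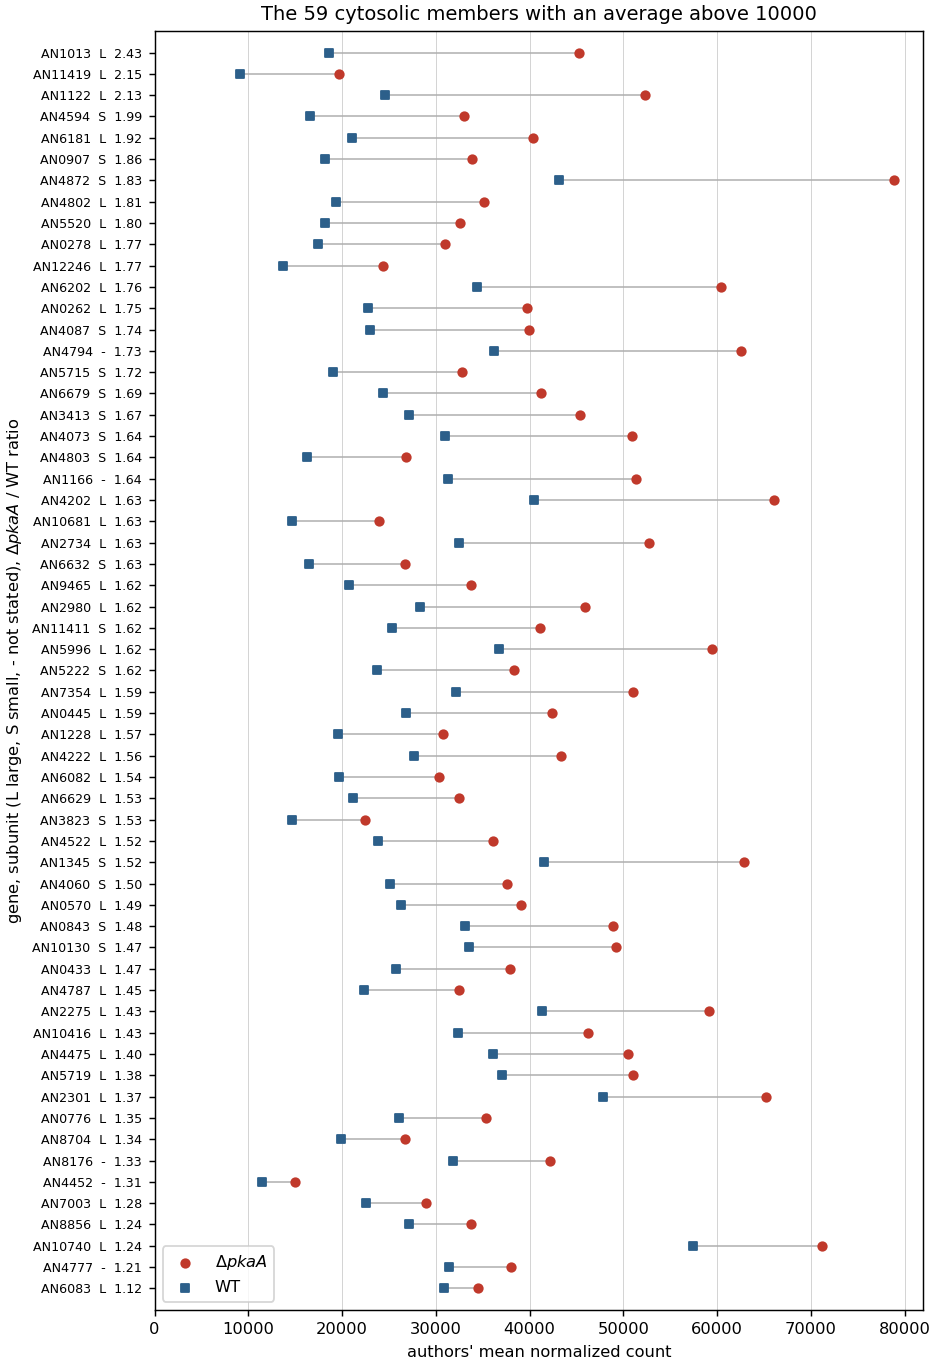
Authors' mean normalized count (x axis, starting at 0) in the Δ*pkaA* strain (red circles) and the WT (blue squares) for each of the 59 cytosolic members with an average above 10000, ordered by ratio. Each mean is 1 value per strain with no error bar. The Δ*pkaA* mean lies to the right of the WT mean in all 59, from AN1013 (ratio 2.43) at the top to AN6083 (ratio 1.12) at the bottom.

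Both subunits shared the shift. The 17 small-subunit members above 10000 had a median ratio of 1.64, from 1.47 to 1.99, and the 37 large-subunit members one of 1.57, from 1.12 to 2.43. The SD of the log2 ratios across genes was 0.12 over the small-subunit members and 0.23 over the large-subunit ones. Of the members of the 59 with a stated subunit, every ratio below 1.47 belonged to the large subunit. The lowest of the 59 was AN6083, whose orthologs act in large-subunit assembly and translational termination, with 34455 in Δ*pkaA* and 30853 in WT, a ratio of 1.12 (1.10 to 1.13).

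Among proteins with a known place in the ribosome, the acidic stalk proteins P1 and P2 recruit the translation factors that hydrolyze GTP. The P1 gene *rpp1* (AN5719) had 51011 in Δ*pkaA* and 37013 in WT, a ratio of 1.38. The P2 gene, listed as *aspf8* (AN5996) after an allergen of *Aspergillus fumigatus*, had 59507 and 36702, a ratio of 1.62. The 2 stalk genes were thus both higher, P2 more than P1.

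AN4872 encodes ubiquitin fused to a protein of the small subunit, and its product is cleaved to give both. It had the highest mean of all members in the Δ*pkaA* strain, 78872, against 43183 in the WT, a ratio of 1.83. *rpL3* (AN6202), for a protein that reaches the peptidyl transferase center, had 60396 and 34405, a ratio of 1.76. *rps23* (AN1345), for a protein of the decoding center, had 62867 and 41496, a ratio of 1.52. The scaffold gene *cpcB* (AN4163), the RACK1 ortholog on the small subunit, is not a member by its text and had 58908 in Δ*pkaA* and 37884 in WT, a ratio of 1.55. No member's text names S6 or P0.

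Others carry a ribosomal protein name in their text. For the large subunit these were L1 (AN8225, ratio 1.05, below the gap), a gene similar to L15 and L27 (AN10416, 1.43), L14 (AN6629, ratio 1.53), L21 (AN4802, 1.81), L24a (AN8704, 1.34) and L37 (AN4787, 1.45), with *rpl17* (AN0776) at 1.35 and *rpl16a* (AN4202) at 1.63. For the small subunit they were a gene with homology to S2 and S5 (AN3413, ratio 1.67), S12 (AN4073, 1.64), S16 (AN4060, 1.50), S26 (AN5715, 1.72) and S28 (AN6632, 1.63), with *rps21* (AN3823) at 1.53. All of these had a higher mean in the Δ*pkaA* strain, but AN8225 by little, and it did not pass the limma test described below (adjusted p = 0.66).

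Per kilobase of gene span, introns included, 5 cytosolic members stood highest by the average of both strains. AN4872 had 77706 mean normalized counts per kb in Δ*pkaA* and 42545 in WT, and AN5996 had 66563 and 41054 per kb. AN1345 had 56791 and 37485 per kb, AN2301 of the large subunit 51133 and 37449 per kb, and AN10740 of the large subunit 48490 and 39079 per kb. In Δ*pkaA* alone, AN4073 (50599 per kb) and AN1122 (48663 per kb) also stood above AN10740. In the Δ*pkaA* strain AN4872 was followed by AN5996. In the WT the order of these 5 differed, with AN10740 above AN1345 and AN2301. The ratio of AN10740, 1.24 (71232 in the Δ*pkaA* strain, 57407 in the WT), was among the lowest of the 59. Across the 59 genes, which share their libraries and are not independent replicates, Spearman's rho between the average and the ratio was -0.17.

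The 14 cytosolic members below the gap did not share the shift. Their median ratio was 0.93, with 6 above 1 and 8 below 1, a lowest value of 0.61 and a highest of 1.33. Their summed means were 33572 in Δ*pkaA* and 37969 in WT. All 14 averages lay inside the range of the mitochondrial members. The word cytosolic stands in 2 of the 14 texts, against 34 of the 59 texts above the gap. Texts that give only 60S, such as those of AN4560 and AN2926, were not counted. Of the 9 cytosolic members whose text begins with a predicted domain, 7 were below the gap. Whether these genes encode proteins of the cytosolic or the mitochondrial ribosome was not tested.

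Several of the lowest ratios belonged to this set. AN4560, annotated as a putative 60S ribosomal protein, lies on chromosome III at 1662379 to 1663319 on the minus strand and had 2400 in Δ*pkaA* and 3951 in WT. AN5702, whose orthologs act in the biogenesis of both subunits, had 3275 and 4996, a ratio of 0.66. AN1711, whose orthologs act in export of the large subunit from the nucleus, had 3490 and 4786, a ratio of 0.73. AN2926, a putative 60S ribosomal protein, had 1775 and 2227, a ratio of 0.80, and AN8256, known by a predicted domain only, had 2709 and 3029, a ratio of 0.89. Among these, AN5702 and AN1711 are annotated with steps of ribosome assembly or transport.

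The ratios of the mitochondrial members lay on both sides of 1, from 0.63 to 1.90. The median ratio was 1.01 over the 49 members with an average of at least 10, with 25 ratios above 1 and 24 below 1. The median mean was 2167 in Δ*pkaA* and 2404 in WT, and the ratio of the summed means was 1.03. The sums include AN4494, at the level of the cytosolic members above the gap, and the rRNA AN20048, both described below. None of the 49 was 2-fold apart, against 16.3% of all genes higher and 16.4% lower. At 1.5-fold, 1 was higher, against 25.2% of all genes, and 1 was lower, against 25.7%. Among 5856 other genes with averages in the range of these members (AN4494 left out), 12.5% were at least 2-fold higher and 11.4% lower. At 1.5-fold these shares were 21.7% and 20.9%. The median ratio of the 33 large-subunit members was 1.01 and that of the 16 small-subunit members 0.93. The remaining member, AN20013, a ribosomal protein S5 encoded in an intron of the large mitochondrial rRNA gene, was listed at 0 in both strains.

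The ends of the mitochondrial range were both small-subunit genes. AN12407 had 3847 in Δ*pkaA* and 2022 in WT, a ratio of 1.90, over a listed span of 0.311 kb. AN10161 had 1562 in Δ*pkaA* and 2497 in WT, a ratio of 0.63. After AN10161, AN4613 (0.70), AN3458 (0.70), AN8794 (0.78) and AN5164 (0.84) had the lowest ratios. Between the ends, AN4494 had 23839 in Δ*pkaA* and 17507 in WT, a ratio of 1.36. Its text names the cytosolic large subunit as well as the mitochondrion, and its level was that of the cytosolic members above the gap, the only one of the 50 to lie there. AN20048, the 15S rRNA of the mitochondrial small subunit, is not a protein gene but meets the text rule, and had 6792 in Δ*pkaA* and 6497 in WT.

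Per kilobase of gene span the highest mitochondrial members were AN4494, with 16361 in Δ*pkaA* and 12016 in WT, and AN12407, with 12369 and 6501. AN2057 of the large subunit followed with 4933 and 4834 per kb. The median over the mitochondrial members was 2195 per kb in Δ*pkaA* and 2187 in WT, and over the cytosolic members above the gap 31817 and 20285 per kb. 2 mitochondrial members annotated as L4 lay close to 1, AN6843 with a ratio of 1.01 and *mrpl4* (AN5897) with 0.91.

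**Figure D3:**
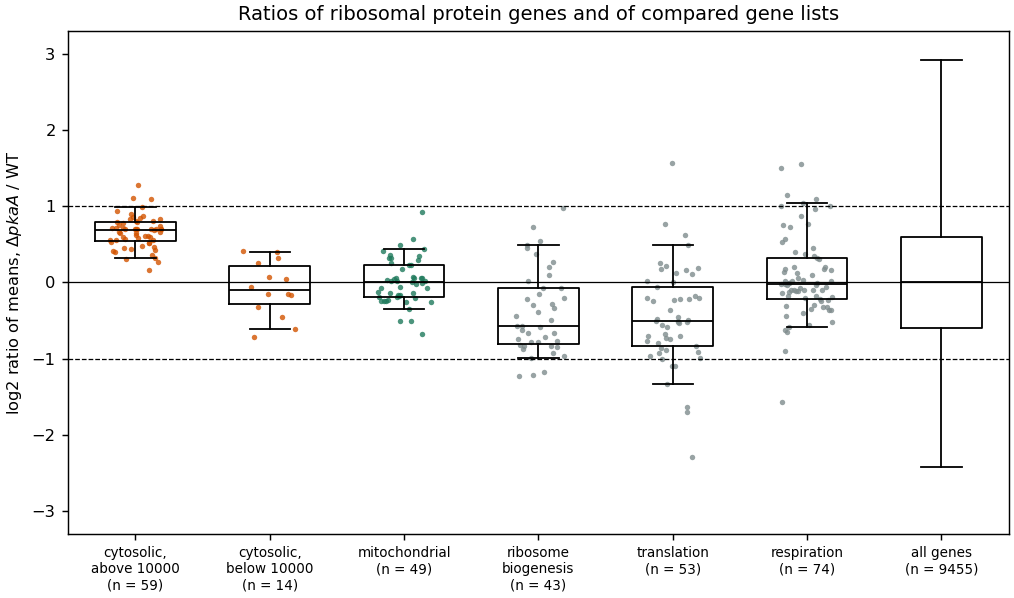
Log2 ratio of the Δ*pkaA* mean over the WT mean (y axis) for cytosolic members above and below an average of 10000, mitochondrial members, 3 compared gene lists and all genes with an average of at least 10. Points are genes, boxes the quartiles with the median, whiskers the 5th and 95th percentiles, and dashed lines 2-fold. The 59 cytosolic members at the left lie wholly above 0 around a median of 0.69, the mitochondrial members lie around 0.01, and the ribosome biogenesis and translation lists have medians of -0.57 and -0.51.

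Genes that build the ribosome had mostly lower means in Δ*pkaA*, unlike the cytosolic members above the gap. Of 43 genes annotated with ribosome biogenesis or rRNA processing that are not members, the median log2 ratio was -0.57, and 20 were at least 1.5-fold lower in the Δ*pkaA* strain against 2 that were higher. The summed means of these 43 were 222341 in Δ*pkaA* and 209564 in WT, so the sum did not follow the median. Of 53 aminoacyl-tRNA synthetase and translation factor genes the median was -0.51, with 22 at least 1.5-fold lower and 3 higher. In all genes these shares were 25.7% lower and 25.2% higher. Of 74 genes of respiration the median was -0.02, close to that of the mitochondrial members. Maf1 and Rap1, which the study lists among PKA substrates in yeast, are linked there to ribosomal components. The study's text does not name their *A. nidulans* genes, which were taken here as AN7681 and AN1906. AN7681 (Maf1, a repressor of RNA polymerase III) had 1840 in Δ*pkaA* and 1934 in WT. AN1906 (Rap1, which in yeast binds ribosomal protein gene promoters) had 988 and 942. Neither passed the test described next (limma, adjusted p = 0.57 for each).

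Reads per library could be recovered from the steps in the means only for genes of low and middle level. The 2 libraries of each strain are called a, with the larger size factor, and b, and cannot be matched to the labelled samples. This was possible for 6645 genes with an average of at least 10, of which 9 were cytosolic members, all below the gap, and 28 were mitochondrial. On these, limma with Benjamini-Hochberg adjustment over the 6645 genes called 32.0% of all genes higher in the Δ*pkaA* strain and 32.0% lower at an adjusted p below 0.05. Of the 28 mitochondrial members, 3 were called higher and 3 lower, and of the 9 cytosolic members 2 were higher and 1 lower. In either direction that is 21.4% of the mitochondrial and 33.3% of the cytosolic members tested, beside 64.0% of all genes tested. Of 28 ribosome biogenesis genes with recovered reads, limma called 16 lower and 1 higher, and the count of lower calls was 10 without Δ*pkaA* library b and 22 without WT library b. Of 12 translation genes with recovered reads it called 2 lower and 4 higher, with a median log2 fold change of 0.01, against -0.51 for the ratios of all 53. Of 34 respiration genes it called 3 lower and 11 higher, with a median of 0.22, against -0.02 for the ratios of all 74. The genes with recovered reads thus do not stand for the whole of a list. For means of 1500 to 2500 the pooled SD between libraries was 0.11 on the log2 scale in Δ*pkaA* and 0.15 in WT. In that range all 1414 recovered Δ*pkaA* means had several solutions, and the solution with libraries within 0.5 (log2) was kept. In WT this held for 176, and 1050 had a single solution. The Δ*pkaA* SD is thus limited by this rule and cannot be set against that of WT. For the 59 members above the gap the spread between libraries is unknown.

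Of the 28 mitochondrial members tested, AN10161 fell and AN0293 rose most clearly. AN12407, with a higher ratio of 1.90, was not tested, as its Δ*pkaA* mean of 3847 lay above the limit for recovery. AN10161, of the small subunit, had 1659 and 1465 in the Δ*pkaA* libraries, against 2645 and 2349 in the WT libraries. The libraries did not overlap, and the log2 fold change was -0.68 ± 0.11 (SE, limma adjusted p = 0.0017). A lack of overlap, here and below, is no support apart from the test, which used the same libraries. AN0293, listed as *ppe1*, has small-subunit and esterase terms, and its hydrolase term leaves it out of the structural members defined below. It had 1375 and 1325 in the Δ*pkaA* libraries, against 859 and 952 in the WT libraries. Its log2 fold change was 0.58 ± 0.11 (SE, limma adjusted p = 0.0026). Both calls held with each library left out in turn.

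The other called mitochondrial members differed by less. AN4613 of the small subunit had 1640 and 1719 in the Δ*pkaA* libraries, against 2544 and 2227 in the WT libraries (log2 fold change -0.50 ± 0.11, limma adjusted p = 0.0052). AN3458 of the large subunit had 2320 and 2181, against 3475 and 2915 (-0.50 ± 0.12, limma adjusted p = 0.0076). Both were lower in each Δ*pkaA* library than in each WT library.

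AN6904 of the large subunit had 2319 and 1880 in the Δ*pkaA* libraries, against 1574 and 1421 in the WT libraries (log2 fold change 0.48 ± 0.13, limma adjusted p = 0.014). AN3595 of the large subunit, which shares 129 bases with AN3594 on the other strand, had 1796 and 1485, against 1315 and 1149 (0.41 ± 0.13, limma adjusted p = 0.028). Both were higher without overlap of the libraries. With 1 library left out, AN4613, AN6904 and AN3595 were no longer called without Δ*pkaA* library a (limma adjusted p = 0.051, 0.10 and 0.18), AN3595 was not called without WT library b (0.074), and AN3458 was not called without Δ*pkaA* library b (0.072).

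Of the cytosolic members tested, AN4560 fell. It had 2562 and 2238 in the Δ*pkaA* libraries, against 4484 and 3417 in the WT libraries, and both Δ*pkaA* values lay below both WT values (log2 fold change -0.71 ± 0.15, limma adjusted p = 0.0047). AN11230, known by a predicted domain, had 1731 and 1358.1, against 1241 and 1074 (0.41 ± 0.14, limma adjusted p = 0.041). AN11568, likewise, had 1390 and 1187, against 1062 and 998 (0.32 ± 0.12, limma adjusted p = 0.047). AN4560 was not called without Δ*pkaA* library b (limma adjusted p = 0.059). AN11230 and AN11568 were called neither without Δ*pkaA* library a (0.25 for each) nor without WT library b (0.099 and 0.10). Without limma's variance trend, AN6904, AN3595, AN11230 and AN11568 were not called (limma adjusted p = 0.052, 0.080, 0.10 and 0.10). With each library centered on its median, AN3595, AN11230 and AN11568 were not called (0.089, 0.11 and 0.18).

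**Figure D4:**
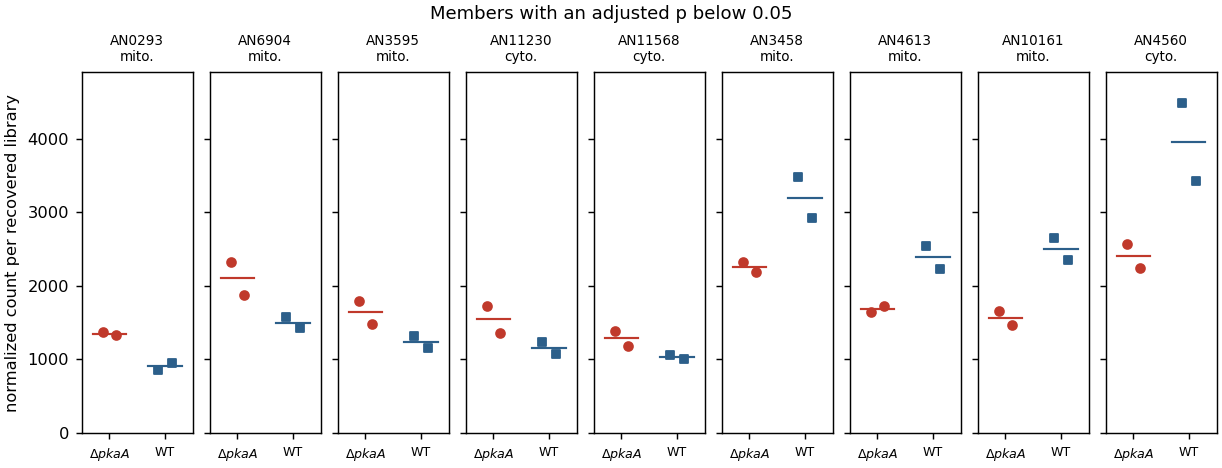
Normalized count per recovered library (y axis, starting at 0) of the 9 members called by limma, with Δ*pkaA* (red circles) to the left of WT (blue squares), library a to the left of library b, and the mean as a bar. The 2 libraries of a strain lie apart from those of the other strain in all 9, from AN0293 (log2 fold change 0.58) to AN4560 (-0.71). The 9 were chosen by limma on these same libraries, so this separation is no further support.

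The 37 members with recovered reads, none of them above the gap, mostly moved together between the libraries of 1 strain. In the Δ*pkaA* strain, 26 of 28 mitochondrial members and 8 of 9 cytosolic members were higher in library a than in library b, and in the WT 27 of 28 and 9 of 9. The median of library a over library b for the mitochondrial members was 1.17 in Δ*pkaA* and 1.16 in WT, and for the cytosolic members 1.14 and 1.19. For other genes with a mean of 1000 to 2500 it was 0.99 and 1.02. The members are therefore not independent of each other, and a shift between 2 libraries moves many of them at once. The part of such shifts in the ratios of the 59 members above the gap was not tested.

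**Figure D5:**
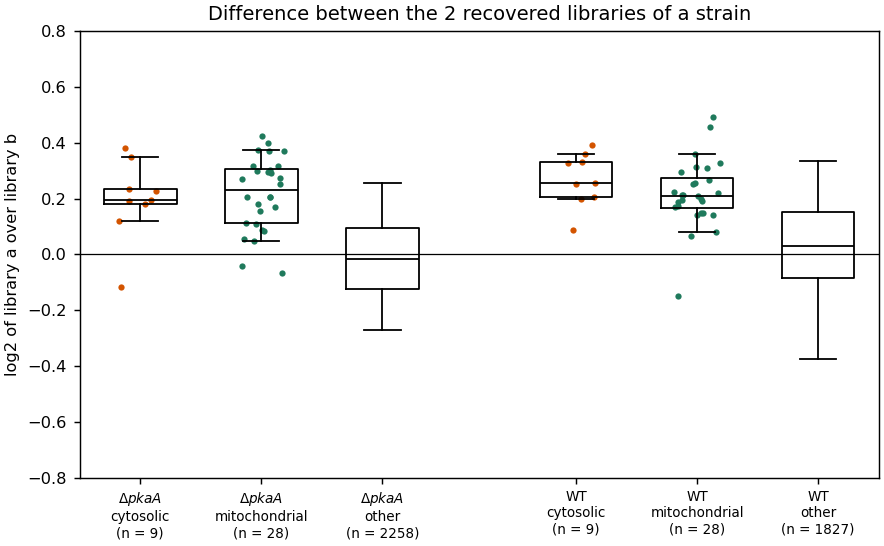
Log2 of library a over library b (y axis) within the Δ*pkaA* strain (left) and the WT (right), for the cytosolic and mitochondrial members with recovered reads and other genes with a mean of 1000 to 2500. Points are genes, boxes the quartiles with the median, and whiskers the 5th and 95th percentiles. Medians of the members lie between 0.20 and 0.26 in both strains, and those of the other genes at -0.02 and 0.03.

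The library difference was widest in a few genes, and was not called between strains in most of them. AN6149 (*mrh4*), a helicase that in yeast helps to assemble the mitochondrial large subunit, had 1097 and 1129 in the Δ*pkaA* libraries, against 1544 and 1098 in the WT libraries. AN2949 had 1390 and 1345, against 1732 and 1261, and AN9469 had 2464 and 1836, against 2277 and 2057. AN11776, the lowest of the large-subunit members, had 454 and 344, against 394 and 373. In these 4 the libraries of the strains overlapped, and the limma adjusted p lay between 0.26 and 0.89. The fifth was AN4560, called above.

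Among members with a place in the RefSeq gene table, 13 of 72 cytosolic and 11 of 43 mitochondrial members overlap a neighboring gene in the authors' coordinates. The strand setting of the counting is not stated, so reads in shared bases cannot be told apart. Leaving out overlapping and unplaced members, the median log2 ratio of the 59 cytosolic members left was 0.62, and 2 were at least 2-fold higher, as AN1122 was among those left out.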

How the data were processed

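RNA-seq libraries (TruSeq RNA v2) were made from 4 samples, 2 of Δ*pkaA* and 2 of WT. The labels give 2 technical runs per sample. Nothing ties the samples to separate cultures beyond the design text, so p-values measure the spread between these samples, which may be partly technical. Reads of 100 bases were mapped by the authors to the AspGD genome using bowtie2, counted and normalized with HT-Seq and compared strains with DESeq. Program versions and the genome release are not stated in the sources used here. Bowtie2 does not split reads across introns.

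The deposited values are a signal, namely a mean of normalized counts per gene and strain, with no value per sample. The strain of each column came from the header of a supplementary list of the study. The fold change, p-value and q-value columns of the authors' comparison, and a second deposited table of genes selected by p-value, were not used. The members and lists were chosen with earlier results of these data known.

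The ratio of Δ*pkaA* over WT was taken with no pseudocount where both means were above 0, and with 1 otherwise, for genes with an average of at least 10. The limit was 2-fold. Genes named were the 5 highest and 5 lowest ratios of each part, the highest per kb, all at 2-fold, those of standing role, and the smallest adjusted p and largest library difference among tested members. AN20048, AN4494, the proteins named in their text, and the 14 members below the gap were singled out after their values were seen. Counting intervals (95%) used the reads implied by the smaller size factor.

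Reads per library were solved from each mean (tolerance 5.5e-05), up to means of 2500 for Δ*pkaA* and 4000 for WT. Where several solutions fitted, the one with libraries within 0.5 on the log2 scale was kept if every other differed by at least 0.75. This favors genes with similar libraries, so the spread between libraries, and with it the SEs and p-values of limma, can be too small. It was tested on simulated data. limma with a trend was fitted on log2(value + 1). The unequal limits keep more genes that are lower in the Δ*pkaA* strain. Alternatives were fold limits of 1.5 and 4, averages of 50 and 100, no filter, pseudocounts of 0.5, 1 and 10, 2 other scalings, structural members only, no trend, centering, and each library left out. Chosen after the data were seen were members above 10000, members with no overlap, both means below 2500 and unique solutions only.

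RefSeq assembly ASM1142v1 gave symbols, chromosomes and neighbors for 9974 of 10930 genes and 115 of 123 members. Its build may differ, and none of its coordinates is given. Software was R 4.3.3 with limma 3.58.1, and Python 3.11.15 with pandas 2.3.3, NumPy 2.4.6 and matplotlib 3.10.9.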

Additional observations from a re-analysis of the deposited data

How the results depend on the processing

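The median log2 ratio of the cytosolic members lay between 0.60 and 0.69 under every alternative, and that of the mitochondrial members between -0.01 and 0.09. The count of cytosolic members past the limit, 3 at 2-fold, was 41 at 1.5-fold (39 higher, 2 lower), 0 at 4-fold, 5 with the means scaled to the same sum and 1 among the 48 structural members. For the mitochondrial members the count, 0 at 2-fold, was 2 at 1.5-fold and 1 with the same sum. Structural members are those whose text names a ribosomal protein or structural constituent of the ribosome and no biogenesis, assembly, export, helicase or hydrolase. This leaves out AN1122 and AN11419, whose texts give only locations, and does not mean that they are not structural proteins. Scaling to the same sum moved every log2 ratio by 0.08. Of the members tested on recovered reads, limma called 9, against 5 without the trend and 0 of 1 with unique solutions only, where few members were tested. With each library left out in turn it called 4 to 14, fewest without Δ*pkaA* library a and most without WT library a. The arm left with 1 library is assumed to vary like the other. Centering on the library median left 10 called, but with 2 higher and 8 lower in place of 5 and 4, over all genes 1844 higher and 2463 lower in place of 2128 and 2126. AN10161 and AN0293 were called in every alternative in which they were tested. No member called changed direction. No paired analysis was possible because the deposited means and the recovered libraries carry no replicate number. Depth does not limit the cytosolic members, but 1 mean per strain does.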

Other observations

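3 pairs of ribosomal protein genes are direct neighbors. AN4803 of the small subunit and AN4802 (L21) of the large subunit lie on chromosome III on opposite strands, with starts facing away from each other over a gap of 210 bases, and had ratios of 1.64 and 1.81. AN6842 and AN6843, both of the mitochondrial large subunit, lie likewise on chromosome I over a gap of 111 bases, with ratios of 0.84 and 1.01. AN6083 and AN6082, both of the cytosolic large subunit, lie on the same strand of chromosome I, 218 bases apart, with ratios of 1.12 and 1.54. No test of these pairs was made.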
